A study of Lupinus micranthus with 18 samples.

Results

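The unigenes described here stood higher in leaves of America seedlings than in leaves of Iceland seedlings under every treatment, and met a limit on change under drought. The table listed 81470 unigenes, the assembled transcript units of Lupinus micranthus, a lupin of the legume family used here without a genome. Of these, 7 met every condition. Their mean over all 18 libraries lay under 200 CPM (counts scaled to a library total of 1000000). They had at least 30 counts over the 9 Iceland libraries. Their lowest America library reached at least 2 times their highest Iceland library. The log2 of their group mean, after adding 1 CPM, differed by less than 1 between each drought time and no treatment in both origins. The deposited table lists bare identifiers, so neither names nor functions are given.

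America seedlings were left untreated or were given polyethylene glycol (PEG), an osmolyte that withholds water from roots, for 24 h or 72 h, and Iceland seedlings were handled in the same way. Each of the 6 groups had 3 libraries of leaf RNA. The labels give no hours for the untreated seedlings and leave unsaid whether replicates came from separate plants. The p-values then rest on a spread among libraries that may be technical. Age or harvest time cannot be told apart from PEG. The library totals lay between 9603068 and 12605500 counts. A count of 0 allows up to 3 counts, or 0.238 to 0.312 CPM depending on the library, and this limit covers counting error only.

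Plants raised from seed of different places can differ in the level of a transcript whatever their surroundings, which is called a constitutive difference. Such differences are known to arise from the sequence next to a gene, from regulators elsewhere in the genome, or from the number of gene copies. In an RNA sample of a whole leaf, fewer cells of a type and less RNA per cell cannot be told apart. Reads of near-identical copies may be divided among unigenes in the deposited counts, so the level of each unigene carries that uncertainty.

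The conditions were met by few unigenes. Of 33993 unigenes under the upper limit and with enough Iceland counts, 20553 were flat under PEG by the rule, and 132 of those had every America library above every Iceland library. The ratio of 2 then left 7, while another 12 had a ratio of at least 1.5 and under 2. The same rule turned round, for unigenes high in Iceland, left 3. These numbers do not rank the origins, since they depend on the count minimum in the low origin. That minimum alone kept out 91 unigenes high in America and 304 high in Iceland, each with at least 30 counts in its high origin. Among all 30895 unigenes tested below, 0.699% had every America library above every Iceland library, and 0.133% did so by at least 2 times. The members were chosen by these values, so the difference between origins is a description. Counts of edgeR calls for it are given below only beside the share of all unigenes, and nothing is read from them.

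**Figure D1:**
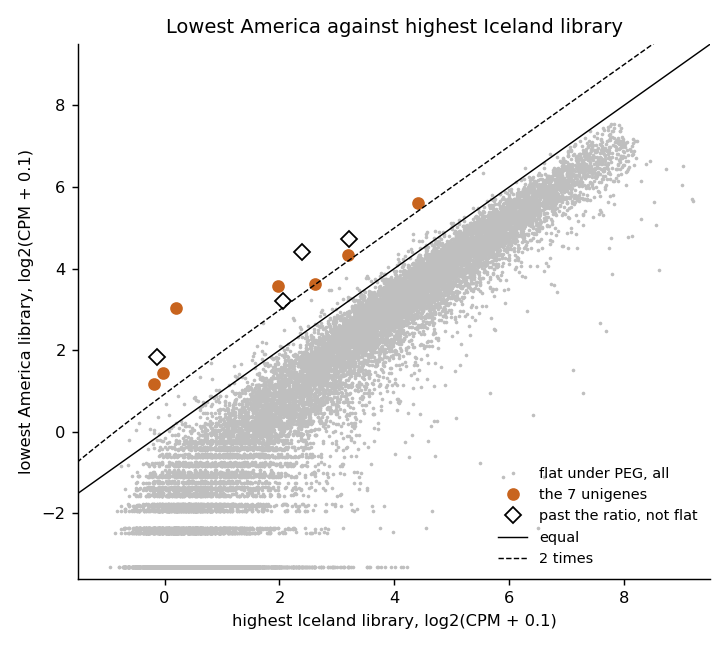
Lowest of the 9 America libraries (vertical axis) against the highest of the 9 Iceland libraries (horizontal axis), both as log2(CPM + 0.1), for the 20553 flat unigenes (grey) and the 7 described here (orange). The orange points lie on or above the dashed line of 2 times, and 4 open diamonds mark unigenes past that line that did not meet the limit on change under PEG.

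Just inside the limit stood Unigene0054437, whose lowest America library was 2.04 times its highest Iceland library. Just outside stood Unigene0053650 at 1.96 times and Unigene0048174 at 1.89 times. Unigene0029099 stood farthest inside, at 7.71 times. The other members lay between 2.20 and 3.09 times.

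In 3 of the 7 unigenes every Iceland group averaged under 1 CPM. Unigene0029099 had the widest difference. It reached 10.1, 20.8 and 30.7 CPM in untreated America leaves, 39.2, 34.1 and 20.5 CPM after 24 h of PEG and 8.06, 14.3 and 11.4 CPM after 72 h. In Iceland leaves it stood at 0.0841, 0.0961 and 0.390 CPM untreated, at 0.0924, 1.05 and 0 CPM after 24 h and at 0.350, 0.205 and 0.811 CPM after 72 h. Its mean over America libraries was 61.6 times its mean over Iceland libraries, which held 34 counts in all against 2125 in America. Within America its libraries spanned 4.87-fold, more than those of any other member.

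Unigene0022005 was the member with most Iceland libraries at 0. It stood at 4.13, 5.17 and 4.86 CPM in untreated America leaves, 3.78, 5.24 and 3.87 CPM after 24 h and 2.77, 2.59 and 2.81 CPM after 72 h. Iceland leaves had 0, 0 and 0.878 CPM untreated, 0.832, 0.610 and 0 CPM after 24 h and 0.524, 0.614 and 0 CPM after 72 h. All 3 America libraries at 72 h lay below the other 6, and 4 Iceland libraries had no count.

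Unigene0072466 was the least abundant member in America by CPM. It had 2.78, 2.16 and 2.29 CPM in untreated America leaves, 2.40, 2.87 and 5.13 CPM after 24 h and 3.44, 3.27 and 2.89 CPM after 72 h. In Iceland leaves it had 0.336, 0.288 and 0.781 CPM untreated, 0.739, 0.784 and 0.104 CPM after 24 h and 0.175, 0.512 and 0.450 CPM after 72 h. By column totals its America libraries at 72 h all lay above the untreated ones, and its Iceland groups overlapped at every time. The edgeR fit, which scales the libraries otherwise, put that America change at a log2 of only 0.10 ± 0.48 (SE).

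For these 3 unigenes the limit on change could not be missed in Iceland, since the log2 of a mean under 1 CPM plus 1 CPM lies between 0 and 1. Their flatness there follows from the rule at such levels.

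A pair of unigenes had low but mostly detectable levels in Iceland. Unigene0017153 stood at 22.3, 26.9 and 17.5 CPM in untreated America leaves, 16.6, 11.9 and 15.4 CPM after 24 h and 15.4, 17.7 and 18.5 CPM after 72 h. In Iceland leaves it stood at 1.43, 0.192 and 3.12 CPM untreated, 0, 1.05 and 2.40 CPM after 24 h and 3.85, 2.56 and 2.79 CPM after 72 h. In America its 24 h libraries all lay below the untreated ones. In Iceland its 72 h libraries all lay above those at 24 h.

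Unigene0054437 had 19.2, 15.0 and 12.3 CPM in untreated America leaves, 16.9, 22.7 and 35.6 CPM after 24 h and 21.6, 13.3 and 20.6 CPM after 72 h. In Iceland leaves it had 0.673, 0.768 and 5.66 CPM untreated, 3.51, 3.22 and 1.25 CPM after 24 h and 1.84, 2.97 and 6.04 CPM after 72 h. Its groups overlapped within each origin. The third untreated Iceland library was 7.86 times the mean of the other two.

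The remaining pair had the highest Iceland means by CPM. Unigene0000030 had 41.4, 21.3 and 46.6 CPM in untreated America leaves, 41.5, 33.9 and 27.9 CPM after 24 h and 20.0, 21.2 and 37.8 CPM after 72 h. In Iceland leaves it had 3.95, 3.94 and 9.08 CPM untreated, 3.14, 6.27 and 7.08 CPM after 24 h and 5.68, 4.91 and 6.85 CPM after 72 h. No group stood clear of another within either origin. Its Iceland means were 5.66 ± 2.96 CPM untreated and 5.81 ± 0.973 CPM after 72 h (SD, n = 3 each).

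Unigene0002958 was the most abundant member by CPM and had the smallest ratio of means, 5.29. It reached 70.8, 81.1 and 56.5 CPM in untreated America leaves, 66.5, 48.5 and 67.1 CPM after 24 h and 64.8, 75.5 and 61.7 CPM after 72 h. Iceland leaves had 4.88, 4.32 and 15.1 CPM untreated, 9.24, 12.5 and 16.9 CPM after 24 h and 21.2, 18.3 and 9.55 CPM after 72 h. In America its libraries spanned only 1.67-fold, the narrowest span among the 7, while in Iceland they spanned 4.89-fold. The first and second untreated Iceland libraries lay below all 6 Iceland PEG libraries, and the third lay among them.

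**Figure D2:**
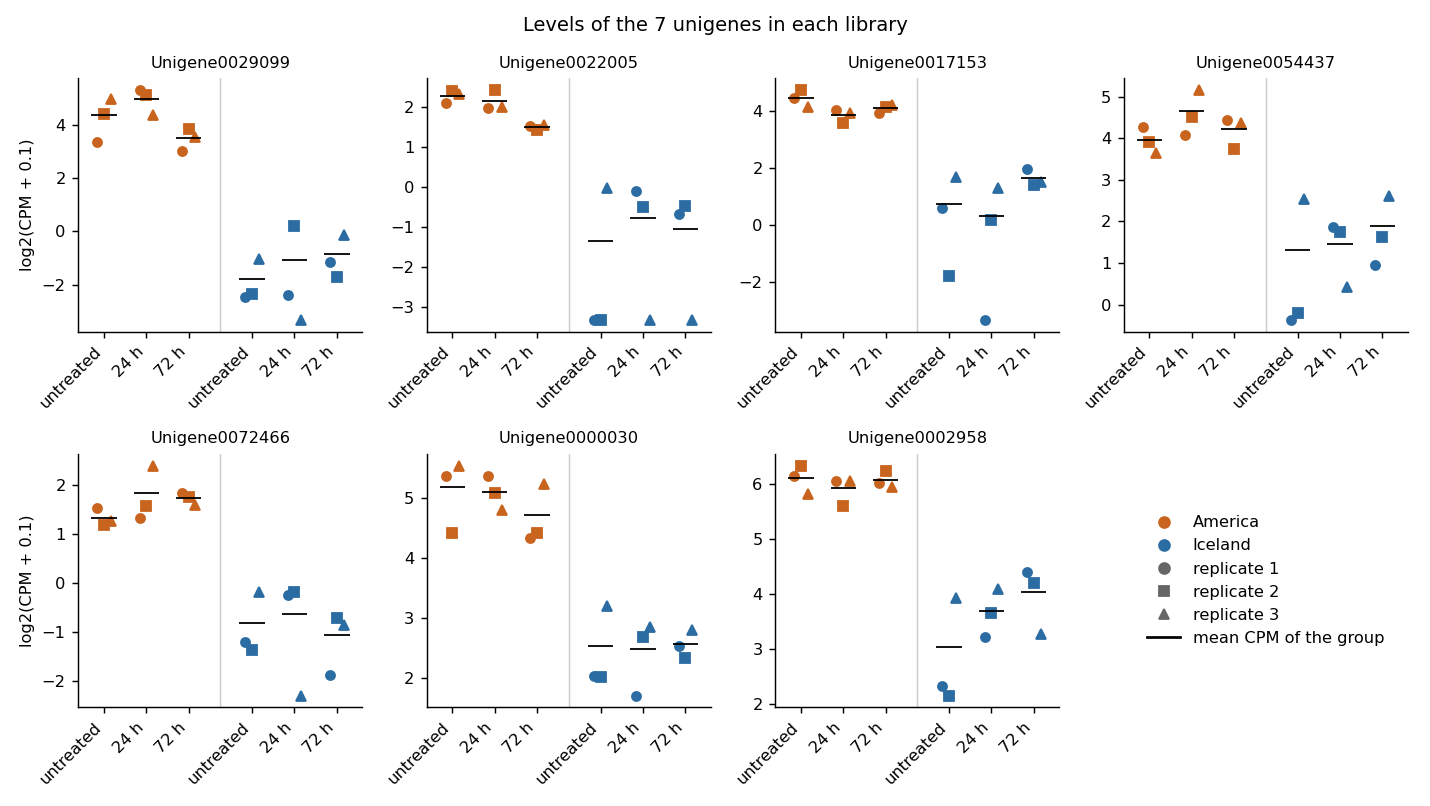
Level of each unigene in every library as log2(CPM + 0.1), America (orange) left of Iceland (blue), untreated, 24 h and 72 h of PEG from left to right within each, with marker shapes for replicates 1 to 3 and a bar at the group mean. The groups of the 2 origins do not overlap in any panel, as the rule required, and untreated Iceland replicate 3 (triangle) is the highest of its group in all 7 panels.

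Levels can be set against each other only per length. On the FPKM scale (fragments per length of the unigene and per library total), Unigene0054437 averaged 19.9 ± 7.11 FPKM and Unigene0002958 19.9 ± 2.94 FPKM in America leaves (SD, n = 9 libraries over 3 treatments). Unigene0022005 followed at 8.42 ± 2.22 FPKM. Unigene0029099 at 4.64 ± 2.49, Unigene0072466 at 4.54 ± 1.35, Unigene0017153 at 3.92 ± 0.948 and Unigene0000030 at 3.77 ± 1.176 FPKM did not differ from their neighbours in this order beyond their spread. The median over the members was 4.64 FPKM in America and 0.697 FPKM in Iceland. Over all unigenes tested it was 4.56 FPKM in America and 4.31 FPKM in Iceland. The Iceland levels per length ran from 0.0767 ± 0.0795 FPKM for Unigene0029099, above 0.41% of the tested unigenes, to 3.75 ± 1.78 FPKM for Unigene0002958, above 46.94%.

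Length was no part of the rule, although the count minimum is reached more easily by a long unigene. The length implied by counts and FPKM was 8593 bases for Unigene0000030, 4588 for Unigene0017153, 4535 for Unigene0029099 and 3312 for Unigene0002958. These 4 were longer than over 90% of the tested unigenes. Unigene0054437 had 987 bases, Unigene0072466 had 666 and Unigene0022005 had 465. The median of the 7 was 3312 bases, against 1362 over all tested. The 91 unigenes that failed only the minimum of 30 Iceland counts, and had at least 30 counts in America, had a median of 675 bases.

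The first comparison asked how far America leaves stood above Iceland leaves under each treatment. Fold changes came from an edgeR quasi-likelihood fit over all tested unigenes, with an adjusted p of 0.05 as the threshold. The calls were made on the values that chose the members, so they are no test of the difference. In untreated leaves 7 of 7 were called higher in America, where 2.34% of all unigenes were. At 24 h of PEG 7 of 7 were called against 5.96% of all, and at 72 h 6 of 7 against 5.15%, with Unigene0022005 outside. At 72 h DESeq2, limma-voom and edgeR with no filter on low counts each called 7 of 7, Unigene0022005 included, beside 18.1%, 14.2% and 6.4% of all in either direction. The median log2 fold change of the 7 was 3.12 untreated, 3.04 at 24 h and 2.42 at 72 h, beside -0.03, 0.05 and 0.03 over all unigenes. Without America replicate 1, Iceland replicate 1 or Iceland replicate 2, 4 of 7 were called in untreated leaves, beside 2.53%, 2.47% and 2.11% of all in either direction.

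The difference was narrowest at 72 h in 6 of the 7. For Unigene0029099 the log2 fold change was 6.70 ± 0.79 (SE) untreated, 6.19 ± 0.72 at 24 h and 4.52 ± 0.70 at 72 h. For Unigene0002958 it was 3.12 ± 0.39 untreated, 2.18 ± 0.37 at 24 h and 1.97 ± 0.36 at 72 h. Unigene0017153 had 3.82 ± 0.68 untreated and 2.42 ± 0.63 at 72 h. Unigene0072466 alone was widest at 72 h, with 2.99 ± 0.56 against 2.34 ± 0.55 untreated.

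Single Iceland libraries moved these values by over 1.5 times. Without untreated Iceland replicate 3 the untreated log2 fold change was 3.79 for Unigene0002958, 4.60 for Unigene0017153 and 4.29 for Unigene0054437, and the median of the 7 was 4.29. Unigene0029099 then stood at 7.59 with 2 untreated Iceland counts left, and Unigene0022005 had none left. Without Iceland 24 h replicate 3 the value at 24 h was 4.70 for Unigene0017153, and without Iceland 24 h replicate 1 it was 3.66 for Unigene0022005. Without Iceland 24 h replicate 2 Unigene0029099 had 1 Iceland count left at 24 h, and its fitted 8.95 depends on the prior count. Without Iceland 72 h replicate 3 the value at 72 h was 5.19 for Unigene0029099 and 2.16 for Unigene0022005.

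**Figure D3:**
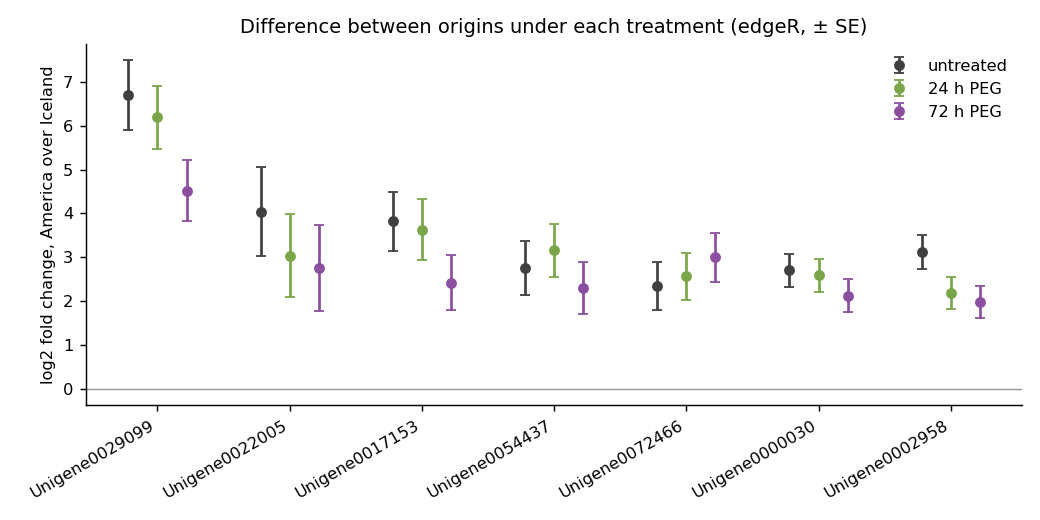
Fitted log2 fold change of America over Iceland leaves (vertical axis, ± SE) for each unigene, untreated and after 24 h and 72 h of PEG, from 3 libraries a group. Every value lies above 0, and the value at 72 h is the lowest of the 3 for every unigene but Unigene0072466.

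Whether that narrowing was larger than the spread was tested as the difference between the origins' responses, which the rule bounds but does not fix. The response of America minus that of Iceland at 72 h was negative in 6 of 7, with a median log2 difference of -1.15 against 0.06 over all unigenes. By edgeR 0 of 7 passed, where 0.693% of all did, and 1 of 7, Unigene0002958, had an unadjusted p under 0.05. DESeq2 and limma-voom also called 0, with 4.48% and 0.0486% of all called. The largest differences were -2.18 ± 1.17 for Unigene0029099 (edgeR adjusted p = 0.380), -1.40 ± 0.89 for Unigene0017153 (edgeR adjusted p = 0.473) and -1.15 ± 0.51 for Unigene0002958 (edgeR adjusted p = 0.277). At 24 h the median was -0.19, and 0 of 7 passed by any of these tools, 0 of 7 had an unadjusted p under 0.05, and 0.861% of all passed by edgeR, 4.8% by DESeq2 and 0.223% by limma-voom. With all libraries in the fit, a narrower difference at 72 h did not pass the adjusted threshold for any of the 7. The rule's limit on each response makes such a call less likely, and few of all unigenes passed. The 0 of 7 therefore says little of the members. Without untreated Iceland replicate 3 the median log2 difference was -1.99 at 72 h and -1.15 at 24 h. That library was the highest untreated Iceland library in 7 of 7 members. Leaving it out pushes these differences down by itself, so no narrowing is read from them.

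The next comparison set PEG leaves against untreated leaves within each origin, a contrast that the rule limited. After 72 h the fitted log2 fold change was negative in 6 of 7 in America (median -0.67) and positive in 5 of 7 in Iceland (median 0.41). After 24 h it was negative in 4 of 7 in America (median -0.34) and positive in 5 of 7 in Iceland (median 0.05). Signs near 0 depend on the scaling. At 72 h Unigene0054437 in America had -0.04 in the fit but 0.24 by the rule's column totals. Unigene0000030 in Iceland had -0.20 in the fit but 0.03 by column totals. Without untreated Iceland replicate 3 the Iceland medians were 1.48 at 72 h, or 1.44 with Unigene0022005 set to 3 counts over the untreated group, and 1.14 at 24 h. Leaving out the highest untreated library of every member raises such medians by itself, so no response is read from them. With all libraries the medians over all unigenes lay between 0.00 and 0.02. No member was called by edgeR in any of the 4 comparisons, in which 31.1% (America, 24 h), 36.4% (America, 72 h), 40.3% (Iceland, 24 h) and 46.4% (Iceland, 72 h) of all unigenes were, and the rule itself keeps members from large changes.

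Some members came near the threshold. At an unadjusted p under 0.05 stood Unigene0000030 and Unigene0029099 in America at 72 h and Unigene0002958 in Iceland at 72 h, and none at 24 h. Unigene0029099 had a log2 fold change of -1.17 ± 0.53 in America at 72 h, and limma-voom called it, as it did 36.3% of all unigenes. Unigene0000030 had -0.77 ± 0.35 there. Unigene0002958 had 0.80 ± 0.37 in Iceland at 72 h, and DESeq2 called it, as it did 49.1% of all. At 72 h limma-voom called 0 members in Iceland (44.7% of all) and DESeq2 0 in America (39.3% of all). At 24 h DESeq2 called 0 in America (34.4% of all) and 0 in Iceland (43.5% of all), and limma-voom 0 in America (30.2% of all) and 0 in Iceland (38.6% of all). In America without 72 h replicate 3, or without untreated replicate 2, Unigene0000030 was called at 72 h by edgeR, where 30.3% and 28.2% of all were. Without America untreated replicate 1, or without Iceland 24 h replicate 2, Unigene0029099 was called there, where 30.9% and 32.9% of all were. In Iceland without 72 h replicate 3, Unigene0002958 was called at 72 h, where 41.3% of all were.

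**Figure D4:**
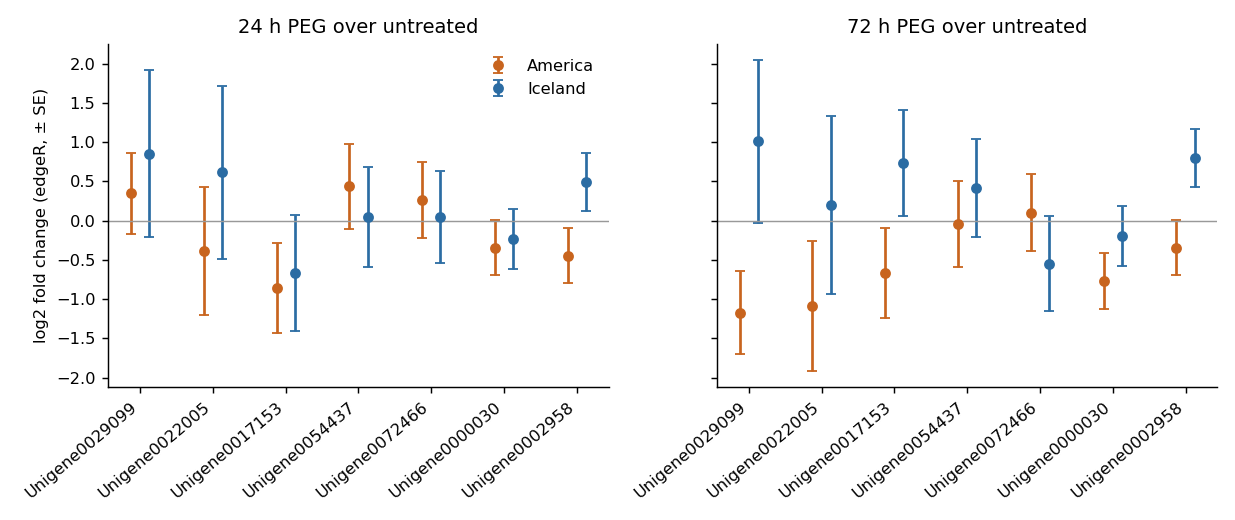
Fitted log2 fold change of PEG over untreated leaves (vertical axis, ± SE) after 24 h (left) and 72 h (right) for each unigene, America (orange) left of Iceland (blue). At 72 h the America value lies below the Iceland value for every unigene but Unigene0072466, and the widest pair is Unigene0029099, at -1.17 in America and 1.01 in Iceland.

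Between the PEG times, 72 h was set against 24 h. In America Unigene0029099 averaged 11.3 ± 3.13 CPM at 72 h and 31.3 ± 9.68 CPM at 24 h (SD, n = 3 each), and the libraries did not overlap. Its log2 fold change was -1.52 ± 0.53 (edgeR adjusted p = 0.182, lower at 72 h in all 3 libraries), while limma-voom called it, as it did 1.93% of all. In Iceland Unigene0017153 averaged 3.07 ± 0.685 CPM at 72 h and 1.15 ± 1.20 CPM at 24 h, with a log2 fold change of 1.40 ± 0.71 (edgeR adjusted p = 0.284). By edgeR 0 of 7 passed in either origin, where 1.41% of all unigenes did in America and 3.72% in Iceland, and the unadjusted p was under 0.05 for 1 in America and 0 in Iceland. DESeq2 called 0 of the 6 to which it gave an adjusted p in America (6.99% of all) and 0 of 7 in Iceland (8.84% of all), and limma-voom called 0 in Iceland (3.37% of all).

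One library weighed on the Iceland values. Untreated Iceland replicate 3 was the highest of its group in 7 of 7 members, between 2.30 and 7.86 times the mean of replicates 1 and 2 in the 6 members where those had counts. Its mean Pearson correlation with the 6 Iceland PEG libraries, over log2 levels of all unigenes tested, was 0.858, against 0.803 and 0.792 for replicates 1 and 2. That with the America PEG libraries was 0.875, against 0.833 and 0.82, so the shift was toward PEG libraries of both origins. That with the rest of its own group was 0.903, against 0.936 and 0.930. Among the 132 flat unigenes with every America library above every Iceland library, replicate 3 was the highest untreated Iceland library in 75. Among the 64 flat unigenes with every Iceland library above every America library, replicate 3 was the lowest untreated Iceland library in 20. How often it was the highest over all tested unigenes was not counted, and the rule that chose the members used its values. Its part in the results was not tested beyond leaving it out.

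Without that library 3 of the 7 no longer met the limit on change in Iceland. The rule's log2 difference at 72 h became 1.63 for Unigene0002958, against 0.93 with it, 1.42 for Unigene0054437, against 0.45, and 1.17 for Unigene0017153, against 0.66. Unigene0022005 had fewer than 30 Iceland counts, all of them at 24 h or 72 h. Unigene0029099, Unigene0072466 and Unigene0000030 still met every condition by column totals. With all libraries but TMM-scaled totals in place of column totals, Unigene0029099 and Unigene0000030 did not meet the rule. TMM is the scaling method of the fits, but here it was computed over all listed unigenes, without their filter. Membership also turned on other libraries: Unigene0029099 dropped out without any 1 of 4 others, Unigene0002958 without Iceland 72 h replicate 3, and Unigene0022005 without Iceland 24 h replicate 1. In a refit without untreated Iceland replicate 3, edgeR called Unigene0002958, Unigene0054437 and Unigene0022005 higher after 24 h of PEG than in untreated Iceland leaves. There 42% of all unigenes were called. After 72 h it called Unigene0002958 and Unigene0054437, where 47.2% were. The fitted log2 fold changes at 72 h were 1.44 and 1.91. The smaller response of America than of Iceland at 72 h passed for Unigene0002958 alone (log2 difference -1.82) by edgeR, where 2.23% of all unigenes passed. Unigene0017153 was called at neither time in that refit. Unigene0002958, Unigene0054437 and Unigene0017153 therefore met the limit on change in Iceland only with untreated replicate 3 included. Leaving out the highest untreated library could only raise an Iceland response by the rule, and it pushes the refitted values the same way. This describes the rule and the refit and is no test of a response.

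Summed over the 7 unigenes, America leaves held 171 ± 0.982 CPM untreated, 174 ± 13.9 CPM after 24 h and 146 ± 9.93 CPM after 72 h. Iceland leaves held 18.7 ± 14.2 CPM untreated, 23.6 ± 5.33 CPM after 24 h and 30.05 ± 3.54 CPM after 72 h (SD, n = 3 each). The untreated Iceland libraries held 11.4, 9.61 and 35.04 CPM. The untreated America libraries held 171, 172 and 171 CPM, although Unigene0029099 stood at 10.1, 20.8 and 30.7 CPM in them. Without Unigene0002958 the same libraries held 99.9, 91.3 and 114 CPM, so the near-equal sums do not mean steady members.

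**Figure D5:**
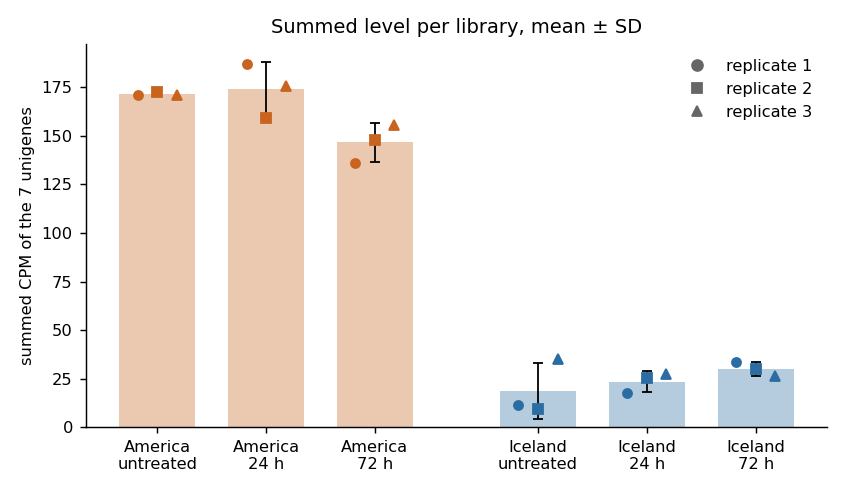
Summed CPM of the 7 unigenes (vertical axis) in each library, with bars for the group mean and error bars for the SD of 3 libraries, America (orange) left of Iceland (blue). America libraries lie between 136 and 187 CPM and Iceland libraries between 9.61 and 35.04 CPM, with untreated Iceland replicate 3 (triangle) the highest Iceland library.

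The rule was also applied to 17 libraries at a time, and the omitted library was then looked at. This gives no independent reading of the members, which were chosen with all 18 libraries. Over the 18 omissions between 3 and 9 unigenes were chosen, 127 choices in all, most of them of the members described here. In the omitted library 116 of the 127 kept a ratio of at least 2 to every library of the other origin, and 125 were still on their side. Of the 69 choices made without an America library 61 kept the ratio, and of the 58 made without an Iceland library 55 did. By the rule a member has a ratio of at least 2 over all 18 libraries, so it keeps that ratio in any omitted library. In each omission the count that kept the ratio equalled the count of members among the chosen. The share for other flat unigenes was not worked out. The choices also share most of their libraries with one another, so these counts are a description and no test.

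The spread between replicates was not small in these unigenes. The biological coefficient of variation fitted by edgeR was 0.590 for Unigene0022005, 0.513 for Unigene0017153, 0.487 for Unigene0054437 and 0.467 for Unigene0029099. It lay between 0.305 and 0.310 for the other 3. The median over all unigenes tested was 0.298.

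The 4 unigenes that failed only the limit on change were also high in America, as the rule's ratio of 2 required of them. The ratios between their means were 17.5 to 28.9. For Unigene0012458 the log2 difference in Iceland was 1.94 at 72 h, and for Unigene0065320 that in America was -1.89 at 72 h. Of 152 unigenes called higher in America under all 3 treatments, 36 had a lowest America library of at least 2 times the highest Iceland library, and 6 were members.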

How the data were processed

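Leaf RNA of 18 libraries was counted per unigene. The authors deposited 1 table with whole-number counts and FPKM values, per the file headers. Per the submitters' processing notes, RSEM 1.3.1, cutadapt 1.18 and bcl2fastq 2.0.1 were used, with no roles stated. Which assembly, annotation and strand setting were used is not given in the sources used here. RSEM estimates need not be whole, so the deposited counts may have been rounded. The deposited FPKM values gave lengths that differed by at most 0.367% between libraries in 4894 unigenes with at least 200 counts in each.

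CPM in the rule used the column total. In R 4.3.3 the counts were filtered by filterByExpr, scaled by TMM and fitted with edgeR 4.0.16 as 6 group means (12 residual degrees of freedom), with Benjamini-Hochberg adjustment over 30895 unigenes. TMM lowered PEG against untreated by 0.22 to 0.30 on the log2 scale relative to column totals. SEs come from the quasi-likelihood F. The fit was also run on simulated counts with the same spread for every unigene, and nothing is read from that run for the 7. The alternatives were limma-voom (limma 3.58.1), DESeq2 1.42.0, other scaling, filter and rule limits, the replicate number as a block, and 17 libraries in place of 18. The unigenes and tests were chosen with earlier results of these data known. The rule for naming took members by rank (ratio of means, FPKM, length, steadiness over treatments), the nearest outside the limits, and the largest changes past the threshold. With only 7 members all are named, also outside that rule, and Unigene0012458 and Unigene0065320 were chosen after their values were seen. Samples were grouped by their titles.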

Additional observations from a re-analysis of the deposited data

How the results depend on the processing

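The number of unigenes meeting the rule depended on its limits. It was 7 with no upper limit on CPM and 8 with TMM-scaled CPM (5 of the 7 among them, with Unigene0000030 and Unigene0029099 lost). It was 6 with 0.1 CPM added in place of 1, an alternative chosen after seeing the data. It was 19 at a ratio of 1.5 and 2 at a ratio of 3, 11 with at least 10 Iceland counts and 4 with at least 100, and 2 with log2 differences under 0.5. Leaving out 1 library at a time gave 3 to 9. Of the 7 members, those called higher in America numbered 4 to 7 untreated (1.94% to 7.8% of all unigenes were called in either direction), 6 to 7 at 24 h (6.66% to 16.4%) and 4 to 7 at 72 h (4.89% to 16.5%) when 1 library was left out. For PEG against untreated the ranges were 0 to 0 in America at 24 h (20.2% to 31.6% of all), 0 to 1 in America at 72 h (26.8% to 36.7%), 0 to 3 in Iceland at 24 h (29.2% to 42%) and 0 to 2 in Iceland at 72 h (35% to 47.2%). They were 0 to 0 for 72 h against 24 h in each origin and for the difference of responses at 24 h, and 0 to 1 for that difference at 72 h. Few of all unigenes were called there either. With all libraries it was 1.41% for 72 h against 24 h in America and 3.72% in Iceland. For the difference of responses it was 0.861% at 24 h and 0.693% at 72 h, or 2.23% at 72 h without untreated Iceland replicate 3. With limma-voom 1 member was called in America at 72 h against untreated and 1 at 72 h against 24 h, and with DESeq2 1 in Iceland at 72 h against untreated. The log2 ratio of summed CPM, America over Iceland, was 2.77, 2.66 to 2.85 without single libraries and 3.07 without Unigene0002958. The ratio of median lengths was 2.43 to all tested and 2.46 to those under 200 CPM.

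Replicate numbers did not pair the samples (correlations of same-numbered deviations -0.15 to 0.17). With the replicate block 6, 6 and 6 members were called between origins untreated, at 24 h and at 72 h, beside 3.95%, 12.2% and 11.6% of all unigenes, and 0 in the other 8 comparisons. Of all 30895 unigenes the block fit called 9084 and 10876 for PEG against untreated in America at 24 h and 72 h. It called 12007 and 13822 in Iceland. For 72 h against 24 h it called 316 in America and 847 in Iceland. Over all unigenes the difference of responses was called by edgeR in 266 at 24 h and 214 at 72 h, with the block in 148 and 116, by DESeq2 in 1481 and 1382 and by limma-voom in 69 and 15. The sum without the 10 most counted members was not run, since there are 7. Low Iceland counts (34 to 45 in 3 members) limit the precision there.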
